A study of Saccharomyces cerevisiae with 18 samples.

Results

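The genes described here are the 35 members of the yeast pathway that takes up sulfate and turns it into methionine, cysteine and S-adenosylmethionine, with the transporters and transcription regulators that belong to it. They were taken by gene symbol from a list of the genes of the pathway, and each of the 35 symbols matched 1 probe set among the 5763 S. cerevisiae probe sets tested. Cultures of BY4743, a diploid laboratory strain of Saccharomyces cerevisiae, were treated in log phase in minimal medium for 20 min with 2.5 mg/mL of 1 of 6 dried extracts of the medicinal plant Equisetum arvense. The extracts are named for their origin as USA2, USA6, USA7, CHINA8, EUROPE11 and INDIA13. RNA of each culture was hybridized to 1 Affymetrix Yeast Genome 2.0 array, which gave 4 arrays for CHINA8, 2 arrays for each other extract and 4 arrays for control cultures. The labels and methods call these untreated while another passage of the study says that they were given the vehicle, so whether they received the vehicle is not settled here. All cultures share the genotype of the strain. It lacks working HIS3, LEU2 and URA3, and carries 1 copy each of LYS2 and of MET15, which is the gene named MET17 below and itself a member of the pathway. Each condition is thus a short exposure of a single strain, and the methods call the cultures biological replicates. Arrays of 2 title dates were deposited. Title date 1 holds 2 CHINA8 and 2 control arrays and title date 2 all others, and what the dates mark is not given in the sources used here.

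Yeast growing without sulfur amino acids imports sulfate, activates it with ATP, reduces it to sulfite and then to sulfide, and joins the sulfide to a carbon skeleton derived from homoserine to make homocysteine. Homocysteine is methylated to methionine or passed through cystathionine to cysteine, and methionine is converted to S-adenosylmethionine, the main methyl donor of the cell. Transcription of most of these genes is driven by the activator Met4, which has no DNA binding of its own and is brought to promoters by Cbf1, Met28, Met31 and Met32, and which the ubiquitin ligase subunit Met30 keeps in check when sulfur compounds are plentiful.

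Values are log2 signals after robust multi-array averaging (RMA), and a difference of 1 is a doubling. Fold changes are extract minus control on this scale. Their standard error (SE) is that of the fit, and a gene is said to have risen or fallen where limma gave an adjusted p under 0.05 (Benjamini-Hochberg over all probe sets tested). Signals of whole cultures are relative to all RNA on an array, so a change in every cell cannot be told apart from a larger change in some of the cells. LEU2 and URA3, which the strain lacks, stayed between 3.31 and 3.98 and between 3.12 and 3.34 on all 18 arrays, on a scale with a lowest value of 2.73 and array medians between 9.55 and 9.64. HIS3 read 10.60 to 11.81 on the same arrays, and whether its probes lie in the part that the strain lacks was not tested. Of the Affymetrix controls, the 3′ minus 5′ difference of 18S rRNA was -1.54 to -1.12 on the 4 CHINA8 and control arrays of title date 2, against -2.85 to -2.08 on the 4 of title date 1 and -2.83 to -2.34 on the 10 arrays of the other 5 extracts. The 3′ minus 5′ difference of the dap spike, a bacterial RNA added to the sample, was 1.96 to 2.38, 1.33 to 1.80 and 1.40 to 1.80 on the same sets of arrays. The part of these differences in comparisons with control was not tested beyond the values given below with and without those arrays. The log2 differences of INDIA13 from USA2, USA6, USA7 and EUROPE11 are between arrays of the same title date and none that stand apart. Their SE and adjusted p come from a fit of all 18 arrays, and so include the spread of those that do.

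INDIA13 was followed by higher expression of most of the pathway. With this extract 21 of the 35 genes (60.0%) rose and 1 fell, where 14.1% of all probe sets rose and 14.4% fell. The median change of the 35 genes was 0.50, against 0.02 over all probe sets. With the other extracts more of the genes fell than rose or the counts were equal when all control arrays were used: 4 rose and 4 fell with USA2 (10.5% and 8.36% of all probe sets), 1 and 4 with USA6 (4.08% and 2.88%), 3 and 12 with USA7 (20.4% and 18.9%), 3 and 5 with CHINA8 (19.7% and 19.9%), and 1 and 4 with EUROPE11 (12.3% and 9.89%). The median changes with these extracts were 0.01, -0.19, -0.20, -0.04 and -0.15, in the same order. The 12 genes that fell with USA7 are 34.3% of the 35, and the counts with USA2, CHINA8 and EUROPE11 lie near or below the shares of all probe sets. The title date and number of the arrays were also used as a replicate block for CHINA8 and control. That they pair these arrays was inferred from the same values, whose deviations also hold the difference between title dates, and is not established. With this block the 8 genes of CHINA8 were joined by MMP1, SAM1 and MET22, which rose by 0.47, 0.23 and 0.15 (limma, adjusted p = 0.000895, 0.0464 and 0.0469, against 0.0717, 0.0589 and 0.110 without the block). They were also joined by SUL1, which fell by 0.30 (0.0447, against 0.0526). Rising and falling genes together numbered 8 with USA2, 5 with USA6, 15 with USA7, 8 with CHINA8, 5 with EUROPE11 and 22 with INDIA13, where 18.9%, 6.96%, 39.3%, 39.6%, 22.2% and 28.5% of all probe sets passed. Several of these counts rest on single arrays: without USA7 replicate 1 the number that rose or fell with USA7 was 9, without USA2 replicate 1 or 2 it was 3 or 2 with USA2, without either USA6 array 2 with USA6, without either EUROPE11 array 3 with EUROPE11, without control replicate 1 it was 8 with EUROPE11, and without control replicate 3 it was 12 with USA6. For INDIA13 it stayed between 17 and 24. Of the genes that rose with INDIA13, 8 fell with at least 1 other extract (SUL2, MET3, MET16, MET5, MET10, MET1, MET2 and MET32), where 0.399% of all probe sets did so. All 6 comparisons share the 4 control arrays. Extract arrays without overlap with control were common. Every extract array lay above every control array on 21.8%, 14.2%, 26.7%, 15.6%, 23.7% and 20.8% of all probe sets. The order is USA2, USA6, USA7, CHINA8, EUROPE11 and INDIA13. In that order, every extract array lay below every control array on 19.6%, 14.4%, 23.9%, 14.6%, 18.5% and 19.5%.

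**Figure D1:**
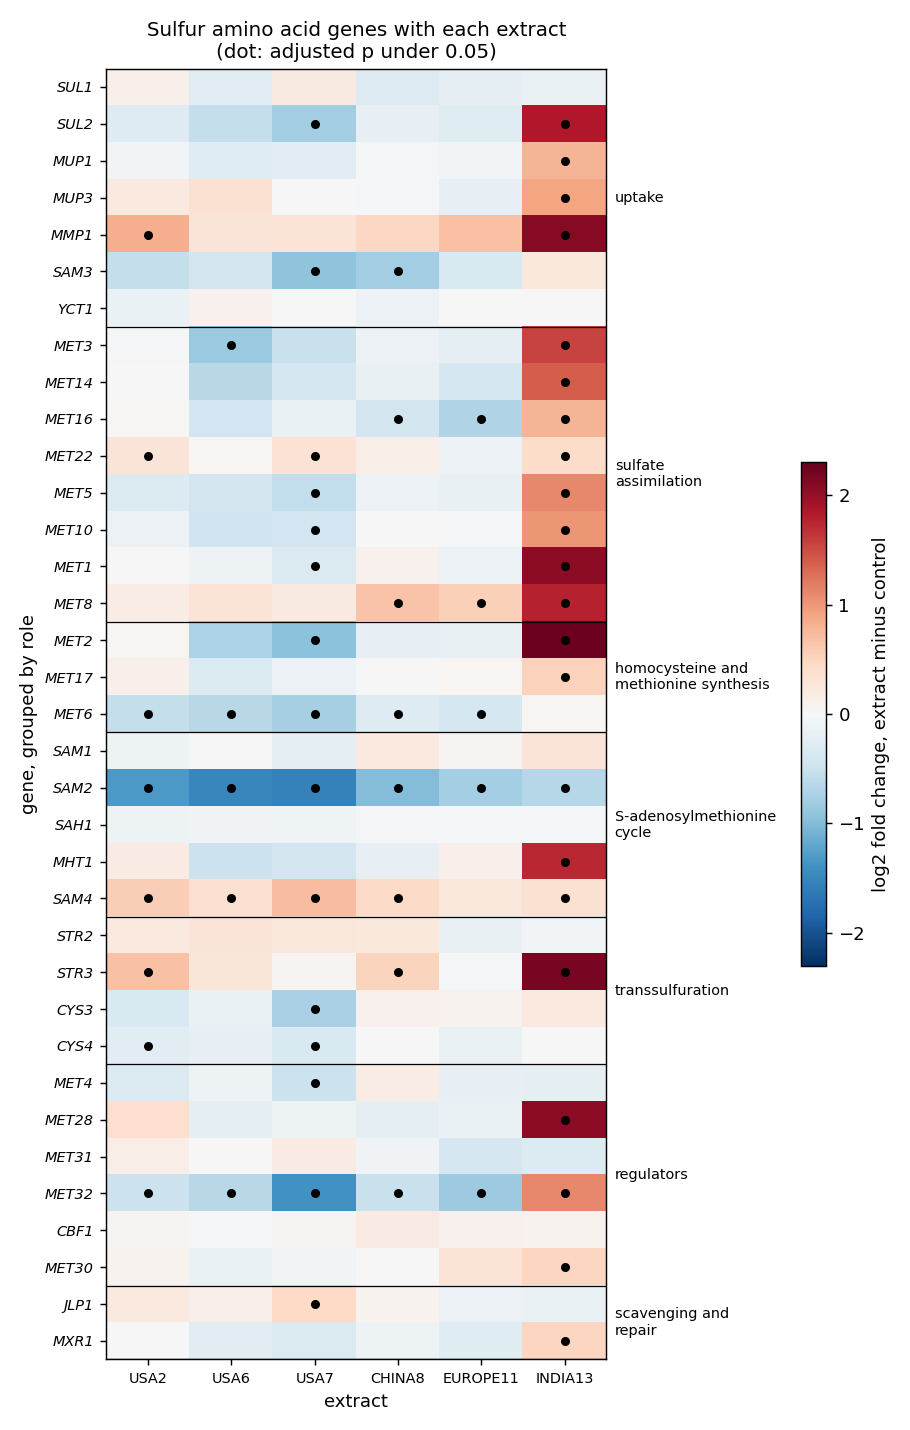
Log2 fold change (extract minus control, colour scale) of the 35 genes, grouped by role down the page, with each of the 6 extracts across it. A dot marks an adjusted p under 0.05, and the INDIA13 column holds 21 dots on raised genes and 1, SAM2, on a lowered gene.

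The extracts also differed from each other by tests in which control arrays enter no contrast. The F-test among the 6 extracts gave an adjusted p under 0.05 for 29 of the 35 genes (82.9%), against 29.4% of all probe sets. The exceptions were SUL1, YCT1, SAH1, STR2, MET31 and CBF1, with adjusted p between 0.0595 and 0.677. With INDIA13, 16 genes were higher than with each of the 5 other extracts (adjusted p under 0.05 in all 5 pairs, over 15 pairs and all probe sets), where 40 of 5763 probe sets, 0.694%, were so. The smallest of the 5 differences was 2.21 for MET2, 2.03 for SUL2, 1.96 for MET1 and 1.67 for MET28, and it was 0.34 for MET6, the lowest of the 16. Against single extracts, the number of genes higher with INDIA13 was 18 for USA2, 20 for USA6, 25 for USA7, 21 for CHINA8 and 19 for EUROPE11, with 1.35%, 1.94%, 2.31%, 4.91% and 1.32% of all probe sets. JLP1 alone was lower with INDIA13 than with another extract, by 0.62 against USA7 and 0.38 against USA2, where 1.72% and 0.555% of all probe sets were lower, and no gene was lower than with USA6, CHINA8 or EUROPE11 (1.25%, 3.31% and 0.763%). In at least 1 of the 15 pairs 29 genes differed, against 32.9% of all probe sets.

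**Figure D2:**
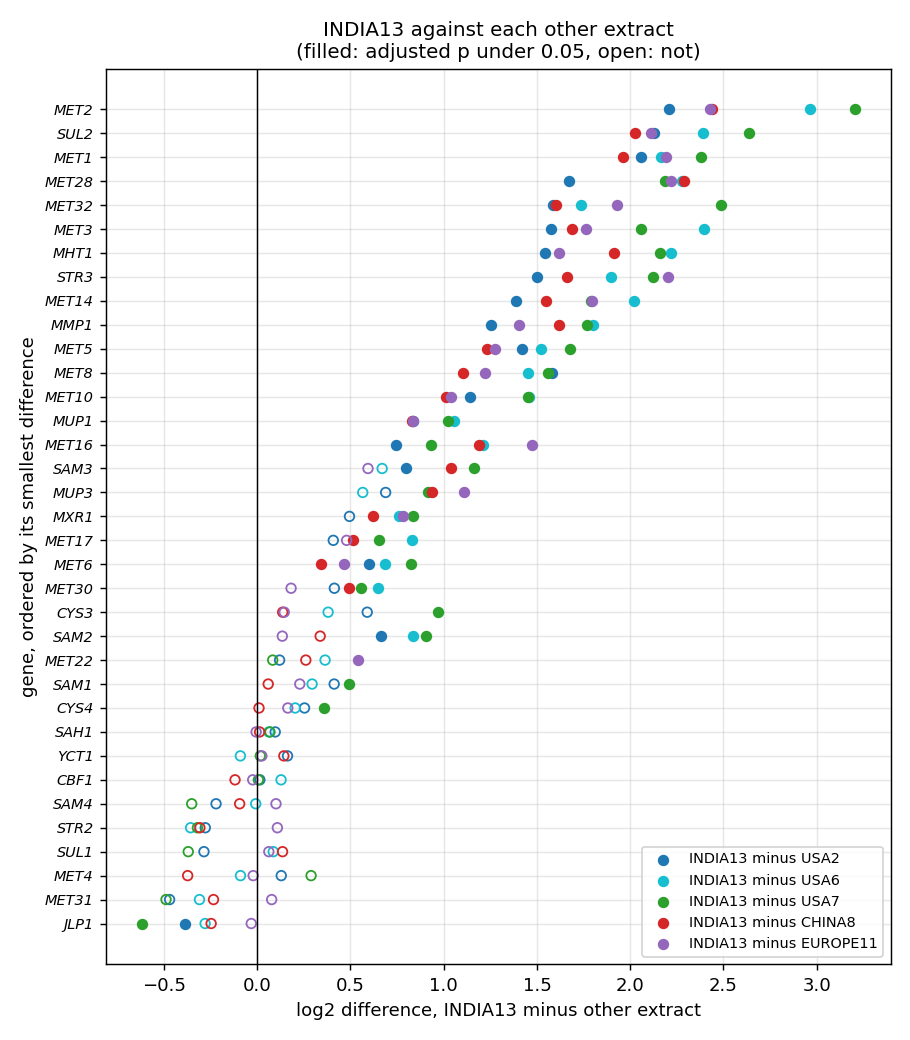
Log2 difference of INDIA13 minus each of the 5 other extracts (horizontal axis) for the 35 genes, ordered by the smallest of the 5 differences. Filled points have an adjusted p under 0.05, and for 16 genes, MET2 and SUL2 at the top, all 5 points are filled and to the right of 0.

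Among the transporters, 4 of 7 rose with INDIA13 and 1, MMP1, with USA2, and none passed upward with USA6, USA7, CHINA8 or EUROPE11 in the model of all arrays, although MMP1 rose with each of these against the control arrays of title date 2 alone. SUL2, a sulfate permease of the plasma membrane, stood at 9.44 and 9.63 with INDIA13, at 6.74 to 7.58 (median 7.40) on the 12 arrays of the other 5 extracts, and at 8.18, 7.79, 7.12 and 7.72 in control. The INDIA13 arrays were above all others, and the fold change was 1.83 (SE 0.20, adjusted p = 2.27e-05). SUL2 fell by 0.80 with USA7 (SE 0.20, adjusted p = 0.00682). SUL1, the second sulfate permease, lay between 4.30 and 5.34 on all 18 arrays and passed in none of the comparisons of that model. LEU2, which the strain lacks, read 3.31 to 3.98, so at this low signal the lack of a call does not show that SUL1 was unchanged. MMP1, the permease of S-methylmethionine, had 9.22 and 9.00 with INDIA13, 7.92 and 7.79 with USA2, 7.28 and 7.34 with USA6, 7.50 and 7.18 with USA7, 7.89, 7.63, 7.34 and 7.11 with CHINA8, 7.84 and 7.57 with EUROPE11, and 7.39, 7.41, 6.59 and 6.69 in control. It rose by 2.09 with INDIA13 (SE 0.24, adjusted p = 3.80e-05) and by 0.83 with USA2 (SE 0.24, adjusted p = 0.0290), and the arrays of each of these extracts lay above every control array. Its control arrays of title date 2 were the 2 lowest of all 18, and against these alone it was higher by 0.67 with USA6, 0.70 with USA7, 0.58 with CHINA8, 1.06 with EUROPE11 and 1.21 with USA2 (SE 0.14 each, adjusted p = 0.00895, 0.00177, 0.00994, 0.000328 and 0.000221). These 2 are among the arrays that stand apart in the 3′ minus 5′ differences. Without the CHINA8 and control arrays of that date MMP1 was higher by 0.45 with USA2 (adjusted p = 0.041). It then did not pass with USA6, USA7 or CHINA8 (-0.09, -0.06 and 0.36, adjusted p = 0.749, 0.766 and 0.0621), nor with EUROPE11. The methionine permeases MUP1 (high affinity) and MUP3 (low affinity) rose by 0.78 and 0.91 with INDIA13 (SE 0.11 and 0.19). SAM3, the permease of S-adenosylmethionine, was at 10.72 and 10.81 with INDIA13, at 9.56 and 9.64 with USA7, at 9.93, 9.86, 9.55 and 9.58 with CHINA8, and at 10.93, 10.75, 10.06 and 10.35 in control. It fell by 0.92 with USA7 and by 0.79 with CHINA8 (SE 0.19 and 0.15), while the INDIA13 arrays lay within the range of the control arrays. Against control of title date 2 alone SAM3 rose with INDIA13, by 0.56 (SE 0.10, adjusted p = 0.00147). Without the CHINA8 and control arrays of that date SAM3 did not pass with INDIA13 and fell with each other extract. Its control means were 10.84 at title date 1 and 10.20 at title date 2. YCT1, a cysteine transporter, kept to 6.73 to 7.33 on all arrays, with no call.

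All 8 genes of sulfate assimilation rose with INDIA13, with a median of 1.24, and on all 8 the INDIA13 arrays lay above every control array, as on 20.8% of all probe sets. MET3 encodes ATP sulfurylase, the first enzyme. It had 11.77 and 11.65 with INDIA13, 10.19 and 10.08 with USA2, 9.28 and 9.36 with USA6, 9.65 and 9.66 with USA7, 10.34, 10.24, 9.71 and 9.82 with CHINA8, 10.02 and 9.88 with EUROPE11, and 10.42, 10.51, 9.83 and 9.89 in control. It rose by 1.55 with INDIA13 (SE 0.20, adjusted p = 9.47e-05) and fell by 0.85 with USA6 (SE 0.20, adjusted p = 0.0186), whose arrays lay below every control array. MET14, the kinase of the second step, rose by 1.38 with INDIA13 (SE 0.21). MET16, the reductase that releases sulfite, stood at 10.33 and 10.19 with INDIA13, 8.77 and 8.80 with EUROPE11, 8.95, 9.31, 9.07 and 8.94 with CHINA8, and 9.32, 9.98, 9.31 and 9.33 in control. It rose by 0.78 with INDIA13 and fell by 0.70 with EUROPE11 and 0.42 with CHINA8, and 1 CHINA8 array lay within the range of the control arrays. MET22, the phosphatase that removes a by-product of this reduction, rose by 0.42 with INDIA13, 0.33 with USA7 and 0.30 with USA2.

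Sulfite reductase is made of the products of MET5 and MET10, and it carries siroheme, whose synthesis needs MET1 and MET8. MET1 had the largest F among extracts of the 35 genes. Its signal was 10.30 and 10.55 with INDIA13, 8.0 to 8.57 (median 8.34) on the 12 arrays of the other extracts, and 8.56, 8.44, 8.10 and 8.40 in control. The gap between INDIA13 and every other array was wider than the spread of all the others, and the fold change was 2.05 (SE 0.12, adjusted p = 1.38e-07). MET8 was at 8.70 and 9.07 with INDIA13, 7.93, 7.87, 7.68 and 7.65 with CHINA8, 7.59 and 7.73 with EUROPE11, 7.16 to 7.45 on the 6 arrays of USA2, USA6 and USA7, and 7.24, 7.05, 6.92 and 7.27 in control. It rose by 1.76 with INDIA13 (SE 0.13), 0.66 with CHINA8 (SE 0.10) and 0.54 with EUROPE11 (SE 0.13), and no array of these 3 extracts overlapped control. The subunit genes MET5 and MET10 rose by 1.10 and 1.01 with INDIA13 (SE 0.14 each) and fell by 0.58 and 0.44 with USA7. MET1 also fell with USA7, by 0.33 (SE 0.12, adjusted p = 0.0375).

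MET2, homoserine O-acetyltransferase, makes the acceptor for sulfide, and MET17 (MET15) joins the sulfide to it. MET2 stood at 10.42 and 10.46 with INDIA13, 8.33 and 8.13 with USA2, 7.44 and 7.51 with USA6, 7.40 and 7.06 with USA7, 8.12, 7.88, 7.78 and 8.21 with CHINA8, 8.07 and 7.95 with EUROPE11, and 8.81, 8.42, 7.55 and 7.95 in control. The SD was 0.03 for INDIA13 (n = 2) and 0.55 for control (n = 4). These are not comparable, since the INDIA13 arrays are of 1 title date. The control means were 8.62 at title date 1 and 7.75 at title date 2. INDIA13 was above USA7 by 3.20 and above USA2 by 2.21, the most and the least of the 5 differences, and MET2 fell with USA7 by 0.95 against control (SE 0.25, adjusted p = 0.00853). MET17 had 13.25 and 13.24 with INDIA13, 12.38 to 12.94 (median 12.69) with the other extracts, and 12.90, 12.91, 12.49 and 12.57 in control. It rose by 0.53 with INDIA13 (SE 0.13, adjusted p = 0.0101), and the INDIA13 arrays were the 2 highest. Between extracts, MET17 was higher with INDIA13 than with USA6, USA7 and CHINA8, by 0.83, 0.65 and 0.51. Its differences from USA2 and EUROPE11, 0.41 and 0.48, did not pass (adjusted p = 0.134 and 0.0834).

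MET6, the methionine synthase that acts without cobalamin, took another course. It was at 13.38 and 13.50 with INDIA13, 12.84 and 12.83 with USA2, 12.75 and 12.75 with USA6, 12.61 and 12.62 with USA7, 13.13, 13.01, 13.21 and 13.05 with CHINA8, 12.99 and 12.96 with EUROPE11, and 13.43, 13.36, 13.31 and 13.46 in control. INDIA13 overlapped control, with a difference of 0.05 (SE 0.07, adjusted p = 0.625), and every array of the 5 other extracts lay below every control array. MET6 fell by 0.55 with USA2, 0.64 with USA6, 0.77 with USA7, 0.29 with CHINA8 and 0.41 with EUROPE11 (SE 0.06 to 0.07). It was lower with USA6 and USA7 than with CHINA8, by 0.35 and 0.48.

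**Figure D3:**
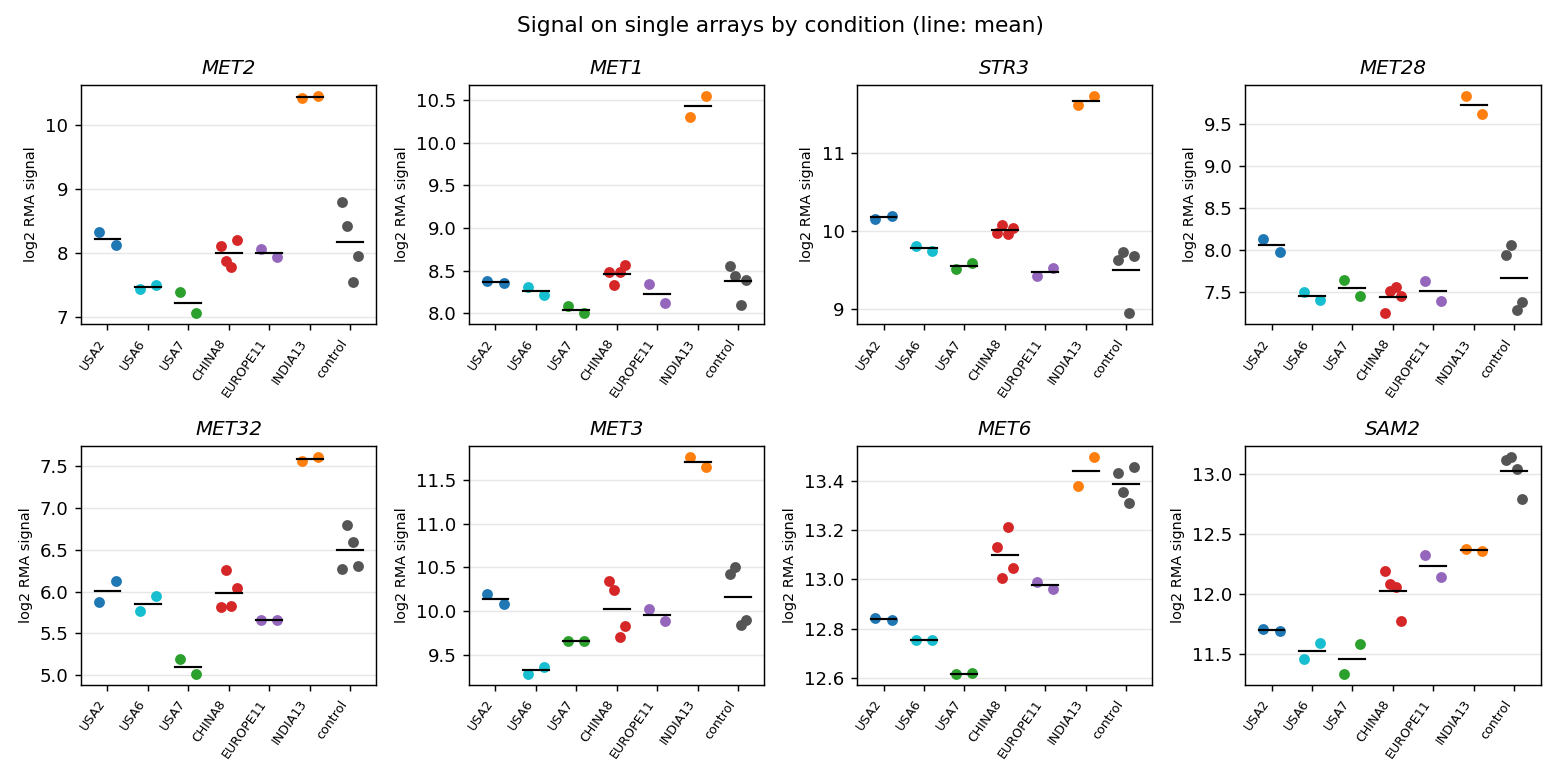
Log2 RMA signal of 8 genes on each of the 18 arrays by condition, with a line at the mean of each condition and control at the right of each panel. For MET2, MET1, STR3, MET28, MET32 and MET3 the INDIA13 arrays are the 2 highest, for MET6 they overlap control, and for SAM2 the control arrays are the 4 highest.

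SAM1 and SAM2 encode near-identical S-adenosylmethionine synthetases, and their probe sets behaved differently. SAM2 had 11.71 and 11.70 with USA2, 11.46 and 11.59 with USA6, 11.34 and 11.59 with USA7, 12.19, 12.08, 12.06 and 11.78 with CHINA8, 12.32 and 12.14 with EUROPE11, 12.37 and 12.36 with INDIA13, and 13.11, 13.14, 13.04 and 12.79 in control. All 14 extract arrays were below all 4 control arrays. SAM2 fell with every extract, by 1.32, 1.49, 1.56, 0.99, 0.79 and 0.66 in that order (SE 0.10 to 0.12), where 1.39% of all probe sets fell with all 6 extracts. It was lower with USA6 and with USA7 than with CHINA8, EUROPE11 or INDIA13, and lower with USA2 than with EUROPE11 or INDIA13. SAM1 lay at 12.45 and 12.38 with USA2, 12.50 and 12.57 with USA6, 12.17 and 12.50 with USA7, 12.83, 12.84, 12.86 and 12.54 with CHINA8, 12.59 and 12.60 with EUROPE11, 12.78 and 12.87 with INDIA13, and 12.64, 12.61, 12.55 and 12.34 in control. With all arrays it did not pass with any extract. Against control of title date 2 alone it rose by 0.38 with INDIA13 (adjusted p = 0.0344), and without the CHINA8 and control arrays of that date it fell by 0.29 with USA7 (adjusted p = 0.0438). Its difference between USA7 and CHINA8 was -0.43 (SE 0.11, adjusted p = 0.0416).

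Within an array, SAM2 minus SAM1 was -1.04 to -0.27 on the 14 extract arrays and 0.45 to 0.53 on the 4 control arrays. The absolute size of such a difference depends on the probes, so only its change between arrays can be read. The means were -0.71 (USA2), -1.0 (USA6), -0.87 (USA7), -0.74 (CHINA8), -0.37 (EUROPE11) and -0.46 (INDIA13), against 0.49 ± 0.03 in control (SD, n = 4), and extract arrays were lower by 1.19 on average. Within title date 2 the gap was -1.17. This pair was singled out after its values were seen, and the values are given as a description. Each of the genes has a probe set of its own, and whether transcripts of one bind probes of the other was not tested.

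**Figure D4:**
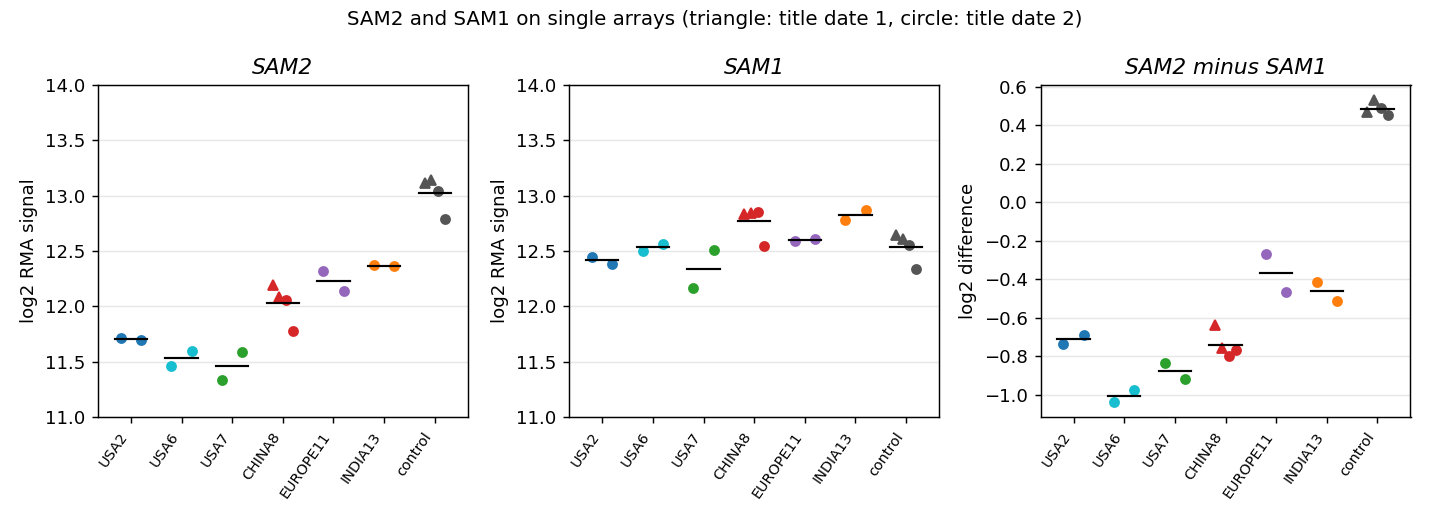
SAM2 and SAM1 signal (log2) and SAM2 minus SAM1 (log2 difference) on each array by condition, with a line at each mean, triangles for title date 1 and circles for title date 2. The difference is -1.04 to -0.27 on the extract arrays and 0.45 to 0.53 on the control arrays, with no overlap at either title date.

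Of the other genes around S-adenosylmethionine, SAM4 and MHT1 encode enzymes that methylate homocysteine, from S-adenosylmethionine and from S-methylmethionine. SAM4 was at 12.29 and 12.44 with USA2, 12.10 and 12.21 with USA6, 12.44 and 12.55 with USA7, 12.13, 12.39, 12.21 and 12.23 with CHINA8, 11.96 and 12.13 with EUROPE11, 12.16 and 12.13 with INDIA13, and 11.62, 11.94, 11.81 and 11.80 in control. It rose with every extract but EUROPE11, by 0.57, 0.36, 0.70, 0.45 and 0.35 in the same order (SE 0.08 to 0.10), where 5.45% of all probe sets rose with at least 5 extracts. With EUROPE11 it was 0.25 higher and did not pass (adjusted p = 0.0744). The EUROPE11 arrays lay above every control array, as on 23.7% of all probe sets. MHT1 rose with INDIA13 by 1.73 (SE 0.28, adjusted p = 0.000642), and its differences with the other extracts did not pass with all arrays. The choice of control arrays changed this. Against control of title date 2 alone MHT1 rose with USA2 by 0.63 and with EUROPE11 by 0.56 (adjusted p = 0.00277 and 0.00427), and without the CHINA8 and control arrays of that date it fell with USA6 by 0.94 and with USA7 by 0.88 (adjusted p = 0.000882 and 0.000480). SAH1, which splits S-adenosylhomocysteine, was the steadiest of the group, with 13.68 to 13.90 on all arrays and no call.

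Of the 4 transsulfuration genes, 1 rose with INDIA13. STR3, cystathionine beta-lyase, works toward homocysteine. It had 11.62 and 11.74 with INDIA13, 10.16 and 10.20 with USA2, 9.80 and 9.75 with USA6, 9.51 and 9.59 with USA7, 9.98, 10.08, 9.97 and 10.05 with CHINA8, 9.42 and 9.52 with EUROPE11, and 9.64, 9.73, 8.94 and 9.68 in control. It rose by 2.18 with INDIA13 (SE 0.16, adjusted p = 7.31e-07), 0.68 with USA2 and 0.52 with CHINA8 (SE 0.16 and 0.13), each with no overlap with control. STR2, cystathionine gamma-synthase, lies on the same route and did not pass with any extract (9.26 to 10.00 on all arrays) except USA7 once the CHINA8 and control arrays of title date 2 were left out (0.33, adjusted p = 0.0475). CYS4 and CYS3, which lead from homocysteine to cysteine, differed from control by 0.02 and 0.23 with INDIA13 (SE 0.07 and 0.16). CYS4 fell with USA7 by 0.34 and with USA2 by 0.24. CYS3 fell with USA7 by 0.74, with a mean of 11.57 ± 0.61 (SD, n = 2) that holds 1 array at 11.14, and without this array the change was -0.31 and did not pass (adjusted p = 0.0541).

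Of the 6 regulators, 3 rose with INDIA13. MET28, a cofactor of Met4 on DNA, stood at 9.84 and 9.62 with INDIA13, 7.24 to 8.13 (median 7.50) with the other 5 extracts, and 7.94, 8.06, 7.29 and 7.38 in control. It rose by 2.06 (SE 0.19, adjusted p = 4.74e-06), and with all arrays it did not pass with another extract. Against control of title date 2 alone it also rose with USA2, by 0.72 (adjusted p = 0.00125). Without the CHINA8 and control arrays of that date it fell by 0.55 with USA6, 0.46 with USA7, 0.63 with CHINA8 and 0.49 with EUROPE11 (adjusted p = 0.0172, 0.0170, 0.00317 and 0.0214). MET32, a zinc finger protein that brings Met4 to promoters, was at 7.56 and 7.62 with INDIA13, 5.88 and 6.12 with USA2, 5.76 and 5.95 with USA6, 5.19 and 5.01 with USA7, 5.82, 6.26, 5.83 and 6.04 with CHINA8, 5.66 and 5.66 with EUROPE11, and 6.27, 6.80, 6.60 and 6.30 in control. INDIA13 arrays were above and all other extract arrays below every control array. It rose by 1.10 with INDIA13 (SE 0.15) and fell by 0.49, 0.64, 1.39, 0.50 and 0.83 with USA2, USA6, USA7, CHINA8 and EUROPE11 (SE 0.12 to 0.15), and it was lower with USA7 than with USA2, USA6 or CHINA8, by 0.90, 0.75 and 0.89. MET6, SAM2 and MET32 were the 3 genes that fell with at least 5 extracts, as 3.54% of all probe sets did. Its relative MET31 had -0.31 with INDIA13 (SE 0.16, adjusted p = 0.173) and passed with no extract when all arrays were used. Against control of title date 2 alone it fell by 0.41 with INDIA13 and by 0.49 with EUROPE11 (adjusted p = 0.0241 and 0.0124).

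MET30, the ubiquitin ligase subunit, had 8.92 and 9.01 with INDIA13, 8.30 to 8.84 (median 8.49) with the others, and 8.72, 8.44, 8.14 and 8.59 in control, a rise of 0.49 (SE 0.13, adjusted p = 0.0119). MET4 itself was at 9.24 and 9.70 with INDIA13, 9.16 and 9.21 with USA7, 9.66, 9.76, 9.96 and 10.01 with CHINA8, and 9.46, 9.50, 9.73 and 10.04 in control. It differed by -0.21 with INDIA13 (SE 0.16, adjusted p = 0.336) and fell by 0.50 with USA7 (SE 0.16, adjusted p = 0.0221). Against control of title date 2 alone MET4 also fell with INDIA13, by 0.41, and with USA2, by 0.54 (adjusted p = 0.0373 and 0.0138). Without the CHINA8 and control arrays of that date MET4 passed with no extract. Its change was then -0.14 with USA2 and -0.30 with USA7 (adjusted p = 0.473 and 0.0878). CBF1 stood at 8.29 and 8.60 with INDIA13, 8.20 to 8.71 (median 8.45) with the others, and 8.52, 8.23, 8.23 and 8.50 in control, with no call.

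JLP1 and MXR1 take sulfur from sulfonates and repair oxidized methionine. JLP1, a sulfonate dioxygenase, rose with USA7 by 0.46 (6.26 and 6.41, against 5.77 to 5.98 in control) and was 0.16 lower with INDIA13, which did not pass. JLP1, like MET32 above, is among the 20% of probe sets with the lowest mean signal. MXR1, a methionine sulfoxide reductase, rose with INDIA13 by 0.50 (SE 0.14, adjusted p = 0.0175).

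Extracts other than INDIA13 also differed from each other in single genes. Against CHINA8, 7 genes were lower with USA7 (MET6, SAM1, SAM2, CYS3, CYS4, MET4 and MET32) and 1, JLP1, was higher, where 8.81% of all probe sets were lower and 11.4% higher. Against EUROPE11, 3 were lower (MET6, SAM2 and CYS3) and 3 higher (MET22, SAM4 and JLP1), with 5.00% and 3.37% of all probe sets. Against USA2 and against USA6, MET32 was lower with USA7 and no other gene passed, where 0.0521% and 2.43% of all probe sets were lower with USA7 and 0.625% and 4.70% higher. None of the 35 passed between CHINA8 and EUROPE11, where 0.885% of all probe sets were higher and 1.79% lower with CHINA8, or between USA2 and USA6, where 0.729% were higher and 0.625% lower with USA2, which does not show that these extracts act alike. MET2, for example, was 0.76 higher with USA2 than with USA6 (SE 0.29, adjusted p = 0.135). In pairs without INDIA13, 13 of the 35 genes (37.1%) passed at least once, against 29.4% of all probe sets.

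The level of many of these genes in control differed between the title dates. Both control arrays of title date 1 were above both of title date 2 for 18 of the 35 genes, against 25.0% of all probe sets, and below for 1, MET4, against 22.0%. The means differed by 0.90 for MHT1, 0.86 for MET2, 0.76 for MMP1, 0.67 for MET28, 0.64 for SAM3 and 0.60 for MET3. The median of the 35 genes relative to their control mean was 0.45 and 0.54 on the INDIA13 arrays, -0.27 to 0.06 on the 12 other extract arrays, 0.11 and 0.12 on the control arrays of title date 1, and -0.18 and -0.05 on those of title date 2. Against control arrays of title date 2 alone, 23 genes rose and 3 fell (MET31, MET4 and SAM2) with INDIA13, where 21.2% and 20.9% of all probe sets did so, and without the CHINA8 and control arrays of that date 19 rose and 1 fell (14.3% and 13.0%). The 4 gained within title date 2 were SAM1, SAM3, MET31 and MET4. Under these choices MET2 was higher with INDIA13 by 2.68 and by 1.82, MET1 by 2.18 and 1.93, STR3 by 2.37 and 1.99, and MET28 by 2.40 and 1.73, and SAM2 lower by 0.55 and 0.76. SAM4 and MXR1 no longer passed with INDIA13 without those arrays (adjusted p = 0.0501 and 0.0617).

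The choice of control arrays also changed which genes passed with the other extracts. With USA2, 10 genes rose and 5 fell within title date 2 (18.2% and 16.7% of all probe sets), and 3 rose and 6 fell without its CHINA8 and control arrays (11.7% and 8.12%). MET3 changed direction, at 0.27 (adjusted p = 0.0306) and -0.33 (adjusted p = 0.0223). Within that date MET14, MET17, MET2, MET28, MET3 and MHT1 joined the genes that rose with USA2 and MET4 those that fell, and without the arrays MET3, MET5, SAM3 and SUL2 joined those that fell. With USA6, 2 rose and 5 fell within title date 2 (9.23% and 7.77% of all probe sets), with MMP1 gained upward and MET14 downward, and 0 rose and 14 fell without the arrays (7.83% and 4.82%), among them MET10, MET14, MET17, MET2, MET28, MET5, MHT1, MUP1, SAM3 and SUL2, which had not passed before. With USA7, 4 rose, MMP1 newly, and 10 fell within the date (25.0% and 23.8%), and 4 rose and 19 fell without the arrays (20.2% and 18.0%). STR2 was gained upward there, and MET14, MET17, MET28, MET3, MHT1, MUP1, MXR1 and SAM1 downward. With CHINA8, 4 rose, MMP1 newly, and 5 fell within the date, where 29.3% of all probe sets rose or fell. Without the CHINA8 and control arrays of title date 2, and with the other extracts in the model, 3 rose and 7 fell with CHINA8, with MET2, MET28 and SUL2 gained downward, against 38.4% of all probe sets in either direction. With EUROPE11, 5 rose and 5 fell within the date (20.2% and 16.4%), with MET17, MET30, MHT1 and MMP1 gained upward and MET31 downward, and 1 rose and 10 fell without the arrays (12.8% and 9.04%), with MET14, MET2, MET28, MET3, SAM3 and SUL2 gained. Without the CHINA8 and control arrays of title date 2, MET32 no longer passed with USA2 or CHINA8, MET22 and CYS4 with USA2, SAM4 with USA6, or MET4 with USA7, and within that date MET10 and MET1 no longer passed with USA7. In the test for a CHINA8 response that differs between title dates, none of the 35 genes passed (limma interaction, 0% of all probe sets). At an unadjusted p under 0.05 there were 3 (SUL2, MET2 and MET28), against 10.8% of all probe sets. With 2 arrays per condition and date, this does not show that the response was alike at both dates. Within title date 2 these 3 genes changed by 0.15, 0.24 and 0.17 with CHINA8. Without the CHINA8 and control arrays of that date the changes were -0.54, -0.62 and -0.63.

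**Figure D5:**
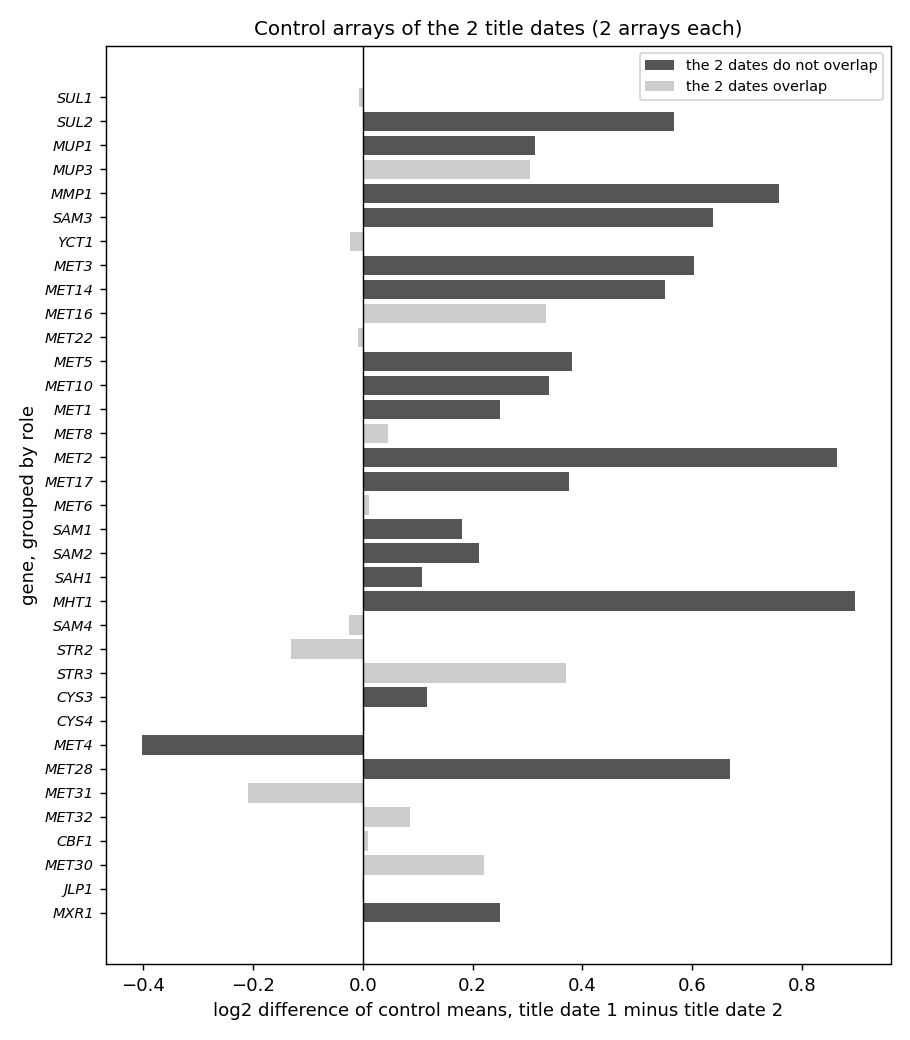
Mean log2 signal of the 2 control arrays of title date 1 minus that of the 2 control arrays of title date 2 for the 35 genes by role. Dark bars are genes on which the arrays of the 2 dates do not overlap, 18 to the right of 0 and 1, MET4, to the left.

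Some changes of single genes passed only with every array in the model. With INDIA13, MET17, MET30, MXR1 and SAM4 did not pass without either INDIA13 array and MET16 without INDIA13 replicate 1 (limma, adjusted p = 0.0511 to 0.122), with changes of 0.34 to 0.71, and the other 17 passed whichever array was left out. With USA7, MET1 and MET4 did not pass without either USA7 array, MET1 also not without control replicate 1, 2 or 4, CYS3, MET10, MET22 and SUL2 not without USA7 replicate 1 and MET2 not without USA7 replicate 2 (adjusted p = 0.0541 to 0.277). With USA2, CYS4, MET22, MET32, MMP1 and STR3 did not pass without either USA2 array and SAM4 without USA2 replicate 2 (adjusted p up to 0.264). MET22 also did not pass with USA2 without control replicate 1, 3 or 4 or either USA6 array, MET32 without control replicate 2 or 3 or either EUROPE11 array, and MMP1 without control replicate 3 or 4. With USA6, MET3, MET32 and SAM4 did not pass without either USA6 array, and SAM4 also not without control replicate 1 or 4. MET16 did not pass with CHINA8 without CHINA8 replicate 1 or 4, and MET16 and MET8 did not pass with EUROPE11 without either EUROPE11 array. SAM2 and MET6 passed with the extracts named above in all of these fits.

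The study's own contrast set 12 extract arrays, without USA6, against the 4 control arrays with the Bonferroni correction. Of the 35 genes, 1 passed, SAM2, at -1.05 (SE 0.17), where 2.29% of all probe sets rose and 1.49% fell. Its adjusted p was 0.0487 (limma, Bonferroni over all probe sets tested). The Affymetrix controls were left out of this fit, and SAM2 no longer passed when they were kept. At an unadjusted p under 0.05 there were 6, MMP1, SAM3, MET8, MET6, SAM2 and SAM4. The pooled group holds extracts with which MET32, MET2 and SUL2 moved in opposite directions. SAM2 no longer passed in this contrast when any 1 control, CHINA8 or USA2 array, USA7 replicate 2 or EUROPE11 replicate 2 was left out.

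Around the pathway, 28 of 30 related genes from a separate list had a probe set. Of these, 11 rose and 0 fell with INDIA13, 8 and 1 with USA2, 0 and 1 with USA6, 9 and 2 with USA7, 7 and 3 with CHINA8, and 4 and 1 with EUROPE11, against the background shares given above. SEO1, a permease gene of the allantoate family, rose with INDIA13 alone, by 2.43 (SE 0.17). OPT1, GSH1 and YHR112C also rose with INDIA13 and with no other extract, by 0.59, 0.36 and 0.45. HOM3 rose with USA2, USA7, CHINA8 and INDIA13, by 0.45, 0.36, 0.48 and 0.43. YML082W rose with CHINA8, EUROPE11 and INDIA13, by 0.61, 0.55 and 0.45. BDS1, a sulfatase that frees sulfate from organic compounds, rose with INDIA13, USA7, USA2 and CHINA8, by 0.61, 0.60, 0.46 and 0.22. ADI1, of the methionine salvage route, rose by 0.49 with INDIA13 and fell by 0.49 with USA6, 0.32 with CHINA8 and 0.59 with EUROPE11. Other genes of that route did not fall with any extract. MEU1 rose with USA2, USA7, CHINA8 and INDIA13, by 0.59, 0.77, 0.38 and 0.38. MDE1 rose with USA2, USA7, EUROPE11 and INDIA13, by 0.60, 0.84, 0.50 and 0.44. MRI1 rose with USA2, USA7 and CHINA8, by 0.33, 0.43 and 0.29, and UTR4 did not pass. IRC7, which encodes a lyase of the cystathionine family, rose with USA7, CHINA8, USA2 and EUROPE11, by 1.02, 0.88, 0.65 and 0.50. MET13, a methylenetetrahydrofolate reductase that supplies the methyl group for MET6, fell by 1.01 with USA7, 0.70 with USA2 and 0.50 with CHINA8. Of the other genes of the folate and methyl cycle, SHM1 rose with every extract but USA6, by 0.29 to 0.38. SHM2 fell with USA7, by 0.53, and MET7, MET12 and ADO1 did not pass.

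On the chromosomes, 4 pairs of the 35 genes lie side by side or with 1 gene between them in the RefSeq annotation of assembly R64. MHT1 and MMP1 are adjacent on chromosome XII and both rose with INDIA13. SAM3 and SAM4, adjacent on chromosome XVI, moved in opposite directions with USA7 and CHINA8. MXR1 and SAH1 are adjacent on chromosome V, and the first rose with INDIA13 while SAH1 did not pass. YCT1 and JLP1, on chromosome XII, did not pass with INDIA13.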

How the data were processed

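RNA of 18 cultures was labelled with biotin and hybridized to Affymetrix Yeast Genome 2.0 arrays, whose probe sets hold several short probes for each transcript. The authors applied RMA, a method that removes background signal, gives all arrays the same distribution and combines the probes of a set. RMA and limma are named in the submitters' notes, without versions. The log2 values the authors deposited were used without change. Quantile normalization makes all arrays alike in distribution, so a shift of most transcripts in one direction cannot be seen. Precision is limited by the number of arrays, since signals are not counts. Columns left unmapped to a sample numbered 0.

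Of 5900 probe sets, 137 Affymetrix controls were set aside and 5763 tested with no filter on dim signals, in limma 3.58.1 (lmFit and eBayes) under R 4.3.3. A model of 7 conditions over 18 arrays gave each extract against control, the F-test among 6 extracts and 15 pairs of extracts, with the Benjamini-Hochberg adjustment over all probe sets (for pairs, over all pairs together). The pooled contrast used a model of 2 groups over 16 arrays and the Bonferroni correction, as in the study. The fits were tested on simulated data. The threshold was 0.05.

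Arrays were grouped by the sample labels. The 4 pairs of a CHINA8 and a control array with the same title date and number had deviations from their group means that correlated at 0.13 to 0.70, all over 0.1, so the numbers were taken to pair these arrays, although deviations of this kind also hold the difference between title dates (within title dates the correlations were 0.75 and 0.18). The other conditions share fewer than 3 such pairs, and their numbers were not taken to pair arrays. Symbols came from the platform annotation, which gave 1 symbol to 5498 probe sets and none to 265. The members, the related genes and the tests were chosen with earlier results of these data known. Values on single arrays are printed for up to 4 genes of each extract with the largest changes among those that passed without overlap with control, for the 4 genes of largest F, and for MET17, MET4, CBF1, MET30, SAM1 and SAM2, and other genes by fold change or range. Motif searches in promoters were planned and are not analysed here.

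The alternatives changed the probe sets kept, the normalization, the prior of eBayes, the adjustment, the title date, the replicate block, the arrays in the model and each single array.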

Additional observations from a re-analysis of the deposited data

Results flagged for a closer look

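In groups of 4 arrays, the gap of the most distant array to its nearest neighbour, divided by the range of the group, was set against Dixon's critical value, for the CHINA8 and the control arrays of each of the 35 genes. It was exceeded in 4 of 70 groups, and chance alone exceeds it in about 1 of 20. SUL1 was 4.30 on CHINA8 replicate 2 and 4.57 to 4.62 on the other CHINA8 arrays. SAM1 was 12.54 on CHINA8 replicate 4, against 12.83 to 12.86. MET16 was 9.98 on control replicate 2 and 9.31 to 9.33 on the other control arrays, and without that array MET16 changed by 0.94 with INDIA13, -0.53 with EUROPE11 and -0.25 with CHINA8. STR3 was 8.94 on control replicate 3, against 9.64 to 9.73.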

How the results depend on the processing

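Of the 63 changes of single genes with single extracts that passed, 35 passed under every alternative apart from the Bonferroni correction, 17 of them with INDIA13, and none changed direction (1750 of 1890 values passed again and 140 kept the direction only). The counts of genes that passed were 8 (USA2), 5 (USA6), 15 (USA7), 8 (CHINA8), 5 (EUROPE11), 22 (INDIA13), 29 among extracts, 29 in at least 1 pair, 1 in the pooled contrast, 0 by title date and 16 higher with INDIA13 than with each other extract. With the Bonferroni correction they were 2, 2, 4, 1, 0, 12, 12, 11 and, for the last, 3, and the Benjamini-Hochberg adjustment gave 3 in the pooled contrast. The pooled count was 0 with quantile normalization of the probe sets, with Affymetrix controls kept, with a robust prior, with title date or replicate number as a block, within title date 2 and without the CHINA8 and control arrays of that date. Leaving out dim probe sets, which removes 9 of the 35 genes, gave 3 for EUROPE11 and 10 of the 16, 6 of which had been removed. The 9 genes are SUL1, SUL2, MMP1, YCT1, MET8, MHT1, MET28, MET32 and JLP1. Title date as a block gave 13 for USA2 and 9 for EUROPE11, and arrays of title date 2 alone gave 15 and 10. Without the CHINA8 and control arrays of title date 2 the counts were 14 (USA6), 23 (USA7) and 11 (EUROPE11). Models of a single extract and control gave 3 (USA2), 2 (USA6), 9 (USA7) and 3 (EUROPE11), and CHINA8 against control within title date 1, chosen after seeing the data, gave 4. The CHINA8 response by title date could not be fitted within 1 title date, and single-extract models give no comparison among extracts. Apart from dim probe sets, where fewer genes were tested, the cause was not tested.

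Leaving out each array in turn gave 2 to 9 for USA2, 2 to 12 for USA6, 9 to 17 for USA7, 8 to 10 for CHINA8, 3 to 8 for EUROPE11, 17 to 24 for INDIA13, 24 to 30 among extracts, 24 to 31 in pairs, 0 to 1 in the pooled contrast, 0 by title date and 13 to 17 of those higher with INDIA13. A replicate left alone in its group is assumed to vary like the others. SAM2 minus SAM1 stayed between -1.22 and -1.16.

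Of 44 pairs of arrays with the same title date and number, deviations from the group means correlated over 0.1 in 19 (-0.54 to 0.70), and outside CHINA8 and control the numbers were not taken to pair arrays. With the replicate number as a block, the counts were 15 (USA2), 10 (USA6) and 12 (EUROPE11), and the other counts moved by at most 1.5 times apart from the pooled one. For CHINA8 the block gave 12, and 11 with the CHINA8 and control arrays alone, a fit chosen after seeing the data, in which SUL1, MMP1 and SAM1 but not MET22 were gained.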

Other observations

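Besides the 16 members and the related genes SEO1 and ADI1, 22 other probe sets were higher with INDIA13 than with each of the 5 other extracts. The 10 with the highest values of the smallest of their 5 log2 differences are named here, by a rule chosen after the values were seen. They were ATO2 (2.33), a plasma membrane transporter gene, PDR12 (1.41), which exports weak organic acids, ICS2 (1.35), PDH1 (1.21), DUG3 (1.14), which takes part in the breakdown of glutathione, RAD59 (1.14), of recombinational DNA repair, DIC1 (1.08), a mitochondrial dicarboxylate carrier, YOL163W (0.99), PHO4 (0.97), the activator of phosphate-responsive genes, and CIT3 (0.90), a mitochondrial citrate synthase.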
